A study of Mus musculus with 12 samples.

Results

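A set of 8 genes of the leukocyte surface was followed in the mouse acute myeloid leukemia line ML23. They are *Cd34*, *Cd93*, *Spn*, *Selplg*, *Cd24a*, *Cd44*, *Emb* and *Ptprc*, taken by gene symbol from a processed RNA-seq table of 20202 genes, and all 8 were found there. ML23 was made from cells of an rtTA transgenic mouse (Jax strain 6965) that were transduced with lentiviruses over-expressing Meis1, HoxA9 and HoxB5. It is 1 leukemia line, passaged in C57BL/6 mice, and all the groups share these factors. ZsGreen+ bone marrow cells of 3 diseased mice were sorted by surface protein into 4 sub-populations, with 3 libraries each. P11, which the study calls the leukemic stem cells (LSC), is CD9- cKit+ Mac1- CD48+. P12 is CD9- cKit- Mac1- CD48+, P10 is CD9- cKit+ Mac1+ CD48+, and P9 is CD9+ cKit+ Mac1+ CD48-. No untransformed cells are among the groups. The age of the mice and the mouse behind each library number are not given in the sources used here, so the p-values measure the spread between libraries, part of which may be technical.

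Levels are given in CPM, reads of a gene scaled to the total of its library. P12 replicate 3 stood apart from the other P12 libraries on the second principal component, at -11.0 beside 13.1 and 15.5, and held 3979 CPM of 12 monocyte and macrophage genes, beside 2363 and 2176 CPM. P10 replicate 3 held 12390 CPM of 12 neutrophil maturation genes, beside 1773 and 2428 CPM in the other P10 libraries. Results that changed without either library are given with and without it.

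Sialomucins are membrane proteins whose long extracellular stalks carry dense, sialic acid-tipped sugar chains. On blood cells these chains can keep cells apart, or, when built into the right glycan, can be bound by selectins on vessel walls. CD34 and CD93 are classical markers of immature hematopoietic cells, CD44 is the main receptor for hyaluronan of the marrow matrix, embigin is an adhesion glycoprotein of the immunoglobulin superfamily, and CD45 is the tyrosine phosphatase that all nucleated blood cells carry.

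The 8 genes did not vary as one group. *Cd34* and *Spn* had their highest mean in P11, *Cd93*, *Emb* and *Selplg* in P12, and *Cd44*, *Ptprc* and *Cd24a* in P9. The mean of the highest sub-population exceeded that of the lowest 61.3-fold for *Cd34*, 16.3-fold for *Cd24a*, 7.25-fold for *Cd93*, 2.73-fold for *Emb*, 2.63-fold for *Ptprc*, 2.28-fold for *Cd44*, 2.06-fold for *Spn* and 1.48-fold for *Selplg*. Marker genes of progenitors, 13 in all, summed to 9260 to 15960 CPM in P11 and to 662.9 to 1044 CPM in P9. *Mpo* alone held 4608 to 9084 CPM in P11, and the others summed to 4652 to 6875 CPM in P11 and 564.3 to 659.0 CPM in P9. They include the sort marker *Kit* and the over-expressed *Meis1* and *Hoxa9*. The genes were grouped as progenitor sialomucins and adhesion molecules. With their highest means in P9, *Cd44*, *Ptprc* and *Cd24a* did not follow the progenitor part of that name. Levels are compared between sub-populations and not between genes, since CPM are not corrected for gene length.

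Promoter windows of RefSeq (build GRCm38.p6, from 250 bases before to 50 after a gene's start) matched 5 of the 8 genes. Shown are those of *Cd34* and *Spn*, whose highest means were in P11, and of *Cd44* and *Ptprc*, whose lowest means were there. None of these genes was called between P11 and P12, and the means of *Spn* there were 448.4 and 447.5 CPM. Capitals mark matches, on either strand, to short motifs of hematopoietic factors: GAGGAA for PU.1, TGTGGT for RUNX factors, AGATAA for GATA factors, TTGCNNAA for C/EBP factors and CAACNG for MYB. The windows lie at chr1:194938571-194938870 (plus strand) for *Cd34*, chr7:127137774-127138073 (minus strand) for *Spn*, chr2:102901616-102901915 (minus strand) for *Cd44* and chr1:138175256-138175555 (minus strand) for *Ptprc*.
Cd34: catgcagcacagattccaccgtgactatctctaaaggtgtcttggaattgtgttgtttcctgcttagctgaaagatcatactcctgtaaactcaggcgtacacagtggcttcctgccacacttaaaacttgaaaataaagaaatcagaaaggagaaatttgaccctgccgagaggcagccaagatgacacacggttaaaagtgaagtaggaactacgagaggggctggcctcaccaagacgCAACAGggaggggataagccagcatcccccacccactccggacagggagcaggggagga
Spn: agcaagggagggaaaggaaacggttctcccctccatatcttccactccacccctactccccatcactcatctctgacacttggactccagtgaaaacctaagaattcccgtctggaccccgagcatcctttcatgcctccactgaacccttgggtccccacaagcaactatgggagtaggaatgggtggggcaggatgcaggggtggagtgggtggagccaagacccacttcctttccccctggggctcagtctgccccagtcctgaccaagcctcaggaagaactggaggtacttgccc
Cd44: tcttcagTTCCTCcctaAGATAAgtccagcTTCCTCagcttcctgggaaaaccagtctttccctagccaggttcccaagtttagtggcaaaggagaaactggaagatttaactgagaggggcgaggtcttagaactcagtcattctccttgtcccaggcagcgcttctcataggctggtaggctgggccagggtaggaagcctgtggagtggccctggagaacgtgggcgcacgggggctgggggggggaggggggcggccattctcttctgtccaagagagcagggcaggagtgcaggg
Ptprc: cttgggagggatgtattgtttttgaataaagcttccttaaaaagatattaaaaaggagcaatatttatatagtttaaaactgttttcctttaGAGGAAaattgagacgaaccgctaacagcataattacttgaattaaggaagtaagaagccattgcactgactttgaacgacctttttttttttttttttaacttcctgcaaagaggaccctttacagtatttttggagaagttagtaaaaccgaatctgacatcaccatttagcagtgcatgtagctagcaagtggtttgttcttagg

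The *Cd34* window held 1 MYB match, whose first base lies 9 bases before the start. The *Cd44* window held 2 PU.1 matches and 1 GATA match, the *Ptprc* window held 1 PU.1 match, and none of the 5 motifs was found in the *Spn* window. None of these matches overlapped another. Of all 32851 windows, 28.3% held a PU.1 match, 35.0% a MYB match, 16.8% a RUNX match, 11.2% a GATA match and 10.8% a C/EBP match, so matches of this kind are common. They describe letters and not sites in use. *Ptprc* has 2 windows, and the RefSeq start behind the printed one lies 403 bases from the gene start of the table.

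*Cd34* (chr1:194938819-194961279, mm10, plus strand) had 431.4, 383.5 and 392.1 CPM in the P11 libraries, 354.2, 406.0 and 305.2 CPM in P12, 91.9, 95.2 and 94.3 CPM in P10, and 7.99, 6.49 and 5.22 CPM in P9. The Mac1- sub-populations P11 and P12 overlapped, every library of theirs lay above every P10 library, and every P10 library lay above every P9 library. On the log2(CPM + 0.5) scale, *Cd34* was 2.09 ± 0.15 (SE) higher in P11 than in P10 (limma, adjusted p = 5.85e-06) and 5.85 ± 0.15 higher in P11 than in P9 (adjusted p = 4.14e-11). P12 stood 1.91 above P10 (adjusted p = 2.13e-05), and P10 stood 3.76 above P9 (adjusted p = 1.06e-09). Between the neighbours P11 and P12 the difference was 0.19, with a 95% interval from -0.13 to 0.51 (adjusted p = 0.607). In bulk libraries such as these, fewer cells that carry a transcript and less of it per cell cannot be told apart. *Cd34* lies across from the antisense gene *Gm16897*, which reached at most 3.3 CPM, and whether reads were assigned by strand is not settled.

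*Cd93* (chr2:148436640-148443563, minus strand) encodes a C-type lectin-like transmembrane protein, known in the mouse as the AA4 antigen of early progenitors and also present on endothelium and monocytes. It had 960.9, 897.1 and 896.2 CPM in P11, 1053, 1039 and 1021 CPM in P12, 929.5, 860.8 and 901.9 CPM in P10, and 111.3, 137.5 and 180.9 CPM in P9. Only P9 stood apart by a large step, and the 3 P12 libraries lay narrowly above all others. The difference from P9 was 2.70 ± 0.15 for P11 (adjusted p = 8.33e-09), 2.88 for P12 (adjusted p = 6.69e-09) and 2.67 for P10 (adjusted p = 1.64e-08), on the log2 scale. Between P11 and P10, which *Cd34* separated, the difference of *Cd93* was 0.03, with a 95% interval from -0.30 to 0.36.

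*Spn* (chr7:127132232-127137823, minus strand) encodes CD43, or leukosialin, an abundant leukocyte sialomucin whose tail binds the ezrin, radixin and moesin (ERM) linkers of the cytoskeleton. It had 410.4, 423.4 and 511.5 CPM in P11, 426.9, 437.1 and 478.4 CPM in P12, 305.3, 325.1 and 386.2 CPM in P10, and 196.0, 208.7 and 247.0 CPM in P9. The libraries of P11 and P12 overlapped, and those of P10 and P9 lay below them in turn without overlap. *Spn* was 1.04 ± 0.14 higher in P11 than in P9 (adjusted p = 1.23e-05) and 1.05 higher in P12 than in P9 (adjusted p = 1.39e-05), which passed the 2-fold limit narrowly. P11 exceeded P10 by 0.40 (adjusted p = 0.0298), under that limit. P11 and P12 differed by 0.00, with a 95% interval from -0.30 to 0.29.

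*Selplg* (chr5:113818536-113832644, minus strand) encodes PSGL-1, the mucin that selectins bind once it carries the sialyl Lewis x glycan and sulfated tyrosines. It had 349.8, 392.8 and 329.9 CPM in P11, 651.1, 376.4 and 506.7 CPM in P12, 414.1, 478.0 and 483.4 CPM in P10, and 433.8, 333.7 and 268.7 CPM in P9. The only pair of sub-populations without overlap was P11 below P10. The most distant pair, P12 against P9, differed by 0.56 (adjusted p = 0.0233), but by 0.10 after rescaling the libraries by their median ratio (adjusted p = 0.70), when P11 against P12 was the most distant at -0.54. No comparison reached 2-fold, and the spread of the 4 group means (SD of 0.27 on the log2 scale) was about that within the groups (0.28). For P11 against P9 the difference was 0.07, with a 95% interval from -0.36 to 0.51.

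*Cd24a* (chr10:43578284-43584265, plus strand) encodes a small mucin held in the membrane by a lipid anchor, which is found on B cell precursors, erythroid cells and neutrophils. It had 48.3, 52.6 and 97.4 CPM in P11, 48.6, 74.5 and 25.1 CPM in P12, 22.5, 27.7 and 98.5 CPM in P10, and 758.5, 859.4 and 799.7 CPM in P9. All P9 libraries lay far above the rest, whereas the other 9 libraries overlapped. The difference from P9 was -3.67 ± 0.49 for P11 (adjusted p = 1.44e-05), -4.15 for P12 (adjusted p = 5.53e-06) and -4.33 for P10 (adjusted p = 5.82e-06). Among P11, P12 and P10 the intervals were wide, as for P11 against P10 with 0.66 (95% interval from -0.39 to 1.71). Without P10 replicate 3 that difference became 1.31 (adjusted p = 0.0170) and was called.

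The libraries with more *Cd24a* outside P9 were partly those with more transcript of neutrophil maturation genes. The sum of 12 such genes was 284.3, 329.0 and 842.2 CPM in P11, 480.8, 470.2 and 417.4 CPM in P12, 1773, 2428 and 12390 CPM in P10, and 129400, 115400 and 119300 CPM in P9. P11 replicate 3 and P10 replicate 3 were the highest of their sub-populations for both. In P10 replicate 3 *Cd24a* stood at 12.2% of its P9 mean and the neutrophil sum at 10.2%, while in P11 replicate 3 the values were 12.1% and 0.694%. *Ly6g*, a surface antigen of neutrophils, was at 9.01 CPM in P10 replicate 3 and at most 3.33 CPM in the other P10 libraries. In P11 replicate 3 *Ly6g* was at 0.30 CPM, beside 0.55 and 0.28 CPM in the other P11 libraries. *Ltf*, another of the 12 genes, was lowest there among the P11 libraries, at 16.1 CPM beside 35.1 and 34.9 CPM. In P12, replicate 2 had the highest *Cd24a* and replicate 1 the highest neutrophil sum. The part of this signal in the *Cd24a* values was not tested.

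**Figure D1:**
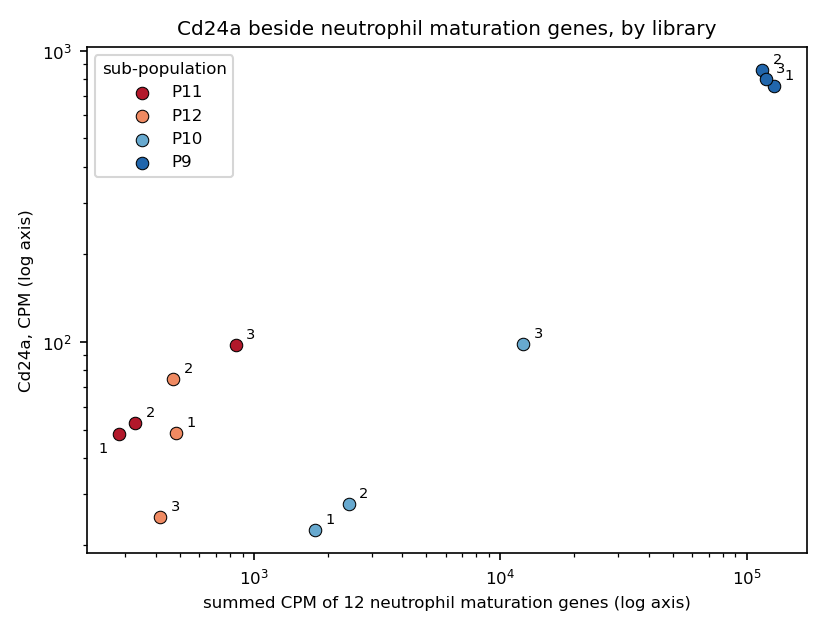
*Cd24a* (vertical axis, CPM, log scale) against the summed CPM of 12 neutrophil maturation genes (horizontal axis, log scale), with 1 point per library, colored by sub-population and numbered by replicate. The P9 libraries lie between 758.5 and 859.4 CPM of *Cd24a*, and replicate 3 of P10 lies to the right of and above the other P10 libraries.

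*Cd44* (chr2:102811141-102901665, minus strand) had 386.5, 370.3 and 411.6 CPM in P11, 482.4, 448.4 and 570.3 CPM in P12, 791.1, 757.5 and 723.6 CPM in P10, and 882.3, 899.4 and 882.8 CPM in P9. No 2 sub-populations overlapped, and the order P9, P10, P12, P11 was the reverse of that of *Cd34*. *Cd44* was lower in P11 than in P9 by a log2 difference of -1.19 ± 0.12 (adjusted p = 1.05e-06). Against P10 it was -0.96 ± 0.12 in P11 (adjusted p = 0.000104) and -0.60 in P12 (adjusted p = 0.00381), both short of 2-fold. The neighbours P10 and P9 differed by -0.23 (adjusted p = 0.105), and P11 and P12 by -0.35, with a 95% interval from -0.61 to -0.10 (adjusted p = 0.225). The values sum the splice forms of CD44, which differ in their extracellular stalk and cannot be separated at this level.

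*Ptprc* (chr1:138062861-138175708, minus strand) encodes CD45, the phosphatase that removes the inhibitory phosphate from Src family kinases. It had 466.1, 455.0 and 432.7 CPM in P11, 423.5, 610.3 and 747.0 CPM in P12, 1122, 1042 and 1016 CPM in P10, and 996.1, 1249 and 1321 CPM in P9. The Mac1- sub-populations lay below the Mac1+ ones without overlap, while within each pair the libraries overlapped. *Ptprc* was -1.23 ± 0.18 in P11 against P10 (adjusted p = 0.000292), -1.39 in P11 against P9 (adjusted p = 1.46e-05) and -1.03 in P12 against P9 (adjusted p = 0.000220). P12 against P10 gave -0.87 (adjusted p = 0.00531), under the 2-fold limit. As for *Cd44*, splice forms of CD45 are summed, and reads may be shared with *A130071D04Rik*, a gene on the same strand that reached at most 3.14 CPM.

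*Emb* (chr13:117208536-117274415, plus strand) encodes embigin, which escorts monocarboxylate transporters to the cell surface. It had 913.4, 952.8 and 931.7 CPM in P11, 948.7, 1165 and 1225 CPM in P12, 998.9, 1060 and 928.9 CPM in P10, and 365.1, 432.3 and 427.1 CPM in P9. As for *Cd93*, P9 alone stood apart, and P11, P12 and P10 overlapped one another. The difference from P9 was 1.20 ± 0.13 for P11 (adjusted p = 2.82e-06), 1.44 for P12 (adjusted p = 6.14e-07) and 1.29 for P10 (adjusted p = 2.64e-06).

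**Figure D2:**
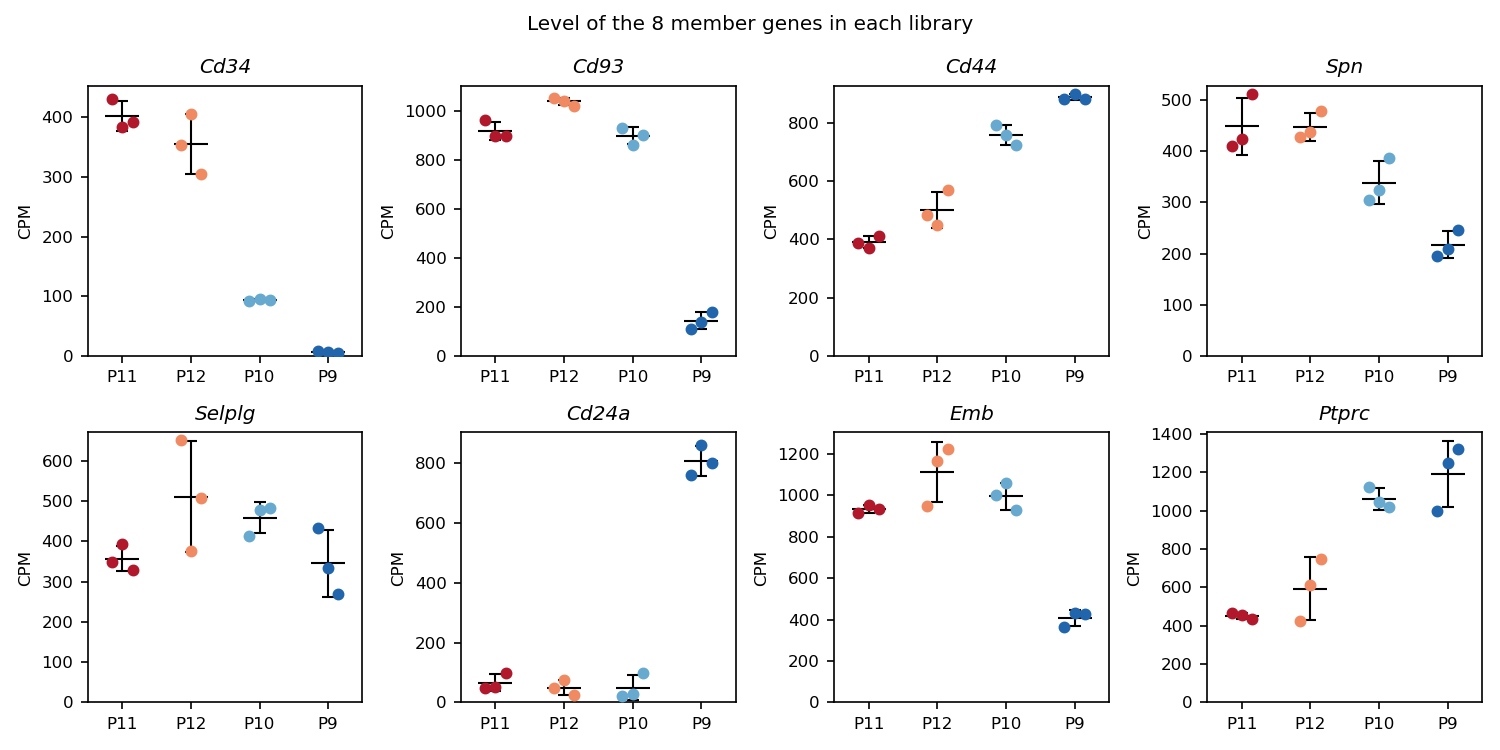
CPM (vertical axes, linear and starting at 0) of the 8 genes in P11, P12, P10 and P9. Points are the 3 libraries of each sub-population, and bars are the mean and SD. *Cd34* is high in P11 and P12, lower in P10 and lowest in P9 at 6.56 ± 1.38 CPM, *Cd93* and *Emb* are low in P9 alone, *Cd24a* is high in P9 alone, and *Cd44* and *Ptprc* run the other way to *Cd34*.

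The study asked how P11 differs from the other sub-populations as a whole. Against the mean of P12, P10 and P9, 1 of the 8 genes was called, that is, passed an adjusted p of 0.1 with more than a 2-fold difference. Of the 13450 genes tested, 25.1% were called (19.9% higher and 5.2% lower). The study used DESeq2 and reported far fewer genes at these limits, so this share is not its own result. The gene called was *Cd34*, 2.71 ± 0.12 higher in P11 (limma, adjusted p = 6.76e-08), and 99.9% of the genes tested had a lower value. This value averages the others on the log scale, and with arithmetic means of CPM *Cd34* was at 1.41 and *Cd93* at 0.41. *Cd93* at 0.85 (adjusted p = 9.37e-05), *Spn* at 0.48 (adjusted p = 0.00244) and *Emb* at 0.28 (adjusted p = 0.0375) passed the p alone. So did *Ptprc* at -0.99 (adjusted p = 0.000126), *Cd44* at -0.83 (adjusted p = 1.91e-05) and *Cd24a* at -0.84 (adjusted p = 0.0851), while *Selplg* at -0.26 (adjusted p = 0.197) did not. The median of the 8 genes was 0.01, and that of all genes tested was 0.40. *Ptprc* lay at the 2-fold limit, and when the libraries were rescaled by their median ratio it reached -1.23, with *Cd44* at -1.07 and *Cd24a* at -1.08, so that 4 genes were called. With 1 library left out, *Ptprc* was called as well without P11 replicate 1 (-1.02), P12 replicate 1 (-1.07), P10 replicate 3 (-1.0) or P9 replicate 1 (-1.03), and *Cd24a* without P11 replicate 3 (-1.16). *Cd44* was the 1 gene of the 8 for which all P11 libraries lay outside the range of the other 9 libraries, below it, beside 14.5% of all genes tested.

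Against P12 alone, none of the 8 genes was called by limma, beside 0.0223% of all genes tested, which is 3 genes. At an unadjusted p under 0.05 there were 2 of the 8, *Cd44* and *Selplg*, and 1860 of all genes tested. The 3 genes called became 119 with the replicate number as a block, 34 with a pseudocount of 2 and 1 to 82 with 1 library left out. *Cd93* and *Cd44* were below P12 in all P11 libraries, and 22.7% of all genes tested did not overlap between these groups. For *Cd44* at -0.35 and *Ptprc* at -0.36, 9.9% of all genes tested had a lower value. Among the P12 libraries, replicate 3 had the highest *Ptprc* and *Cd44* and the lowest *Cd34*. Without it, *Ptprc* in P12 against P10 reached -1.06 and was called.

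Against P10, 2 of the 8 genes were called, *Cd34* higher and *Ptprc* lower in P11, beside 20.4% of all genes tested (12.8% higher and 7.52% lower). Without P10 replicate 3, *Cd24a* was called higher in P11 as well (1.31), and 2866 of 13350 genes tested were called. With all libraries, there was no overlap for 5 of the 8 genes, beside 59.9% of all genes tested. Only *Cd34* was called in P12 against P10, beside 12.1% of all genes tested (6.25% higher and 5.83% lower), and 5 of the 8 genes did not overlap there, beside 42.8%. Thus, with all libraries, 1 gene, *Cd34*, separated both Mac1- sub-populations from P10 past both limits. Without P12 replicate 3, *Ptprc* did so too, at -1.06 in P12 against P10. In that fit 2248 of 13370 genes tested were called in P12 against P10.

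Against P9, 7 of the 8 genes were called in P11, beside 57.9% of all genes tested. *Cd34*, *Cd93*, *Emb* and *Spn* were higher, and *Cd24a*, *Ptprc* and *Cd44* were lower. Among all genes tested, 46.8% were called higher and 11.2% lower in this comparison, and the median difference was 0.90. The libraries did not overlap for 7 of the 8 genes, beside 79.3% of all genes tested. Relative to that median, *Spn* was at 0.14 and *Emb* at 0.29, and *Cd34* and *Cd93* were at 4.95 and 1.80. *Cd44* was at -2.09, *Ptprc* at -2.29 and *Cd24a* at -4.57 relative to it. Rescaling brought the median of all genes to 0.45 and *Spn* and *Emb* to 0.54 and 0.69, neither of which was called. Without P11 replicate 3 or without P9 replicate 1, *Spn* was at 0.95 and 0.97, also not called.

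In P12 against P9, 6 of the 8 genes were called, 4 higher and 2 lower, beside 54.3% of all genes tested (43.2% higher and 11.1% lower), with *Cd44* at -0.83 short of 2-fold. *Ptprc* lost its call there without P12 replicate 1 (-0.81), without P9 replicate 2 (-0.99) or without P9 replicate 3 (-0.95). *Spn* at 1.05 lost it without P9 replicate 1 (0.98) or P12 replicate 3 (1.00) and after rescaling (0.59), as did *Emb* after rescaling (0.99). In P10 against P9, 4 of the 8 were called, *Cd34*, *Cd93* and *Emb* higher and *Cd24a* lower in P10, beside 42.4% of all genes tested (34.1% higher and 8.33% lower). The libraries did not overlap for 7 of the 8 genes in P12 against P9, beside 73.2% of all genes tested, and for 6 of the 8 in P10 against P9, beside 68.8%. Here rescaling brought *Emb* in P10 against P9 to 0.92, and it was not called. The comparisons with P9 share the P9 libraries, and those with P11 share the P11 libraries, so their values are not independent of each other.

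**Figure D3:**
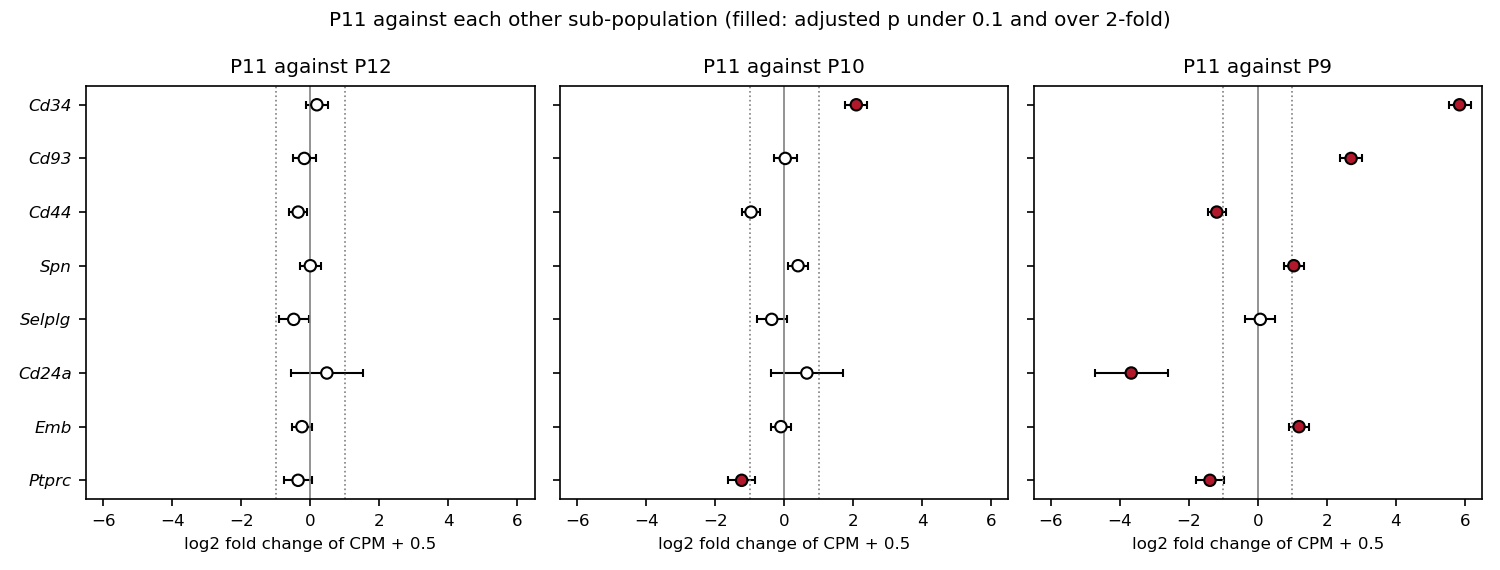
Log2 difference of CPM + 0.5 in P11 against P12, P10 and P9 (horizontal axes) for each gene, with 95% intervals. Filled points passed an adjusted p of 0.1 and 2-fold, and the dotted lines mark 2-fold. No point is filled against P12, 2 are filled against P10 and 7 against P9.

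A ratio of 2 genes within a library does not depend on the scaling of that library. The log2 ratio of *Cd34* to *Cd44* ranged from -0.07 to 0.16 in P11, from -0.90 to -0.14 in P12, from -3.11 to -2.94 in P10 and from -7.40 to -6.79 in P9. These 4 ranges did not overlap, in the order P11, P12, P10, P9. *Cd34* and *Cd44* had opposite orders, and *Cd44* alone already showed no overlap, so this order is not a separate result. The pairs of genes were picked by hand, and the share of all gene pairs with such an order was not computed. The log2 ratio of *Spn* to *Ptprc* averaged -0.02 for P11, -0.37 for P12, -1.65 for P10 and -2.45 for P9. Its ranges in P11 (-0.18 to 0.24) and P12 (-0.64 to 0.01) overlapped. The log2 ratio of *Cd93* to *Cd24a* did not give this order. It averaged 3.87 for P11, 4.53 for P12, 4.51 for P10 and -2.52 for P9, and only the P9 range did not overlap the others. The size of such a ratio depends on the lengths of both genes, and only its differences between libraries can be read.

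Of the enzymes and selectins that make and bind selectin ligands, 22 were tested. Of these, 2 were called higher and 1 lower in P11 against the mean of the others (median 0.10). In this comparison 19.9% of all genes tested were called higher and 5.2% lower, with a median of 0.40. *Tpst1*, a tyrosine sulfotransferase of the kind that acts on PSGL-1, had 15.91, 13.62 and 12.43 CPM in P11, 11.31, 13.62 and 10.94 CPM in P12, 10.25, 8.82 and 12.42 CPM in P10, and 0.366, 0.715 and 0.842 CPM in P9. It was 1.44 ± 0.19 higher in P11 (adjusted p = 4.46e-05), and the P9 libraries alone were low. *Fut7*, the fucosyltransferase that completes sialyl Lewis x, averaged 22.5 ± 1.90 CPM in P11, 25.1 ± 3.61 CPM in P12, 17.2 ± 2.66 CPM in P10 and 5.66 ± 2.06 CPM in P9 (SD, n = 3 each). Its difference from P9 was 1.96 in P11 (adjusted p = 5.76e-06), beside a median of 0.90 for all genes tested. *Selplg* itself did not show this step.

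The remaining named genes of this list had smaller differences or low levels. *Gcnt1*, which starts the branched O-glycan that carries the ligand, was at -0.45 (adjusted p = 0.0380) in P11 against the mean of the others, and *Tpst2*, the second sulfotransferase, at -0.41 (adjusted p = 0.0514). *Sele* (7.86 CPM in P11) was called higher and the sialyltransferase gene *St3gal6* lower, both at few CPM. *St3gal6* averaged 0.156 CPM in P11, 0.389 CPM in P12, 0.447 CPM in P10 and 3.27 CPM in P9. Only its P9 libraries reached 1 CPM, so it passed the filter and was called through P9. In P11 it was at -0.44 against P12 and -0.50 against P10, neither of which was called.

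*Podxl*, which encodes podocalyxin, a relative of CD34, stayed at or under 0.493 CPM in every library, and neither it nor *Podxl2*, the gene of endoglycan, passed the filter on low values. Of 10 genes for this family and other sialomucins, 5 were tested and 1 was called, *Muc13*, a mucin gene at 2.54, 3.77 and 6.76 CPM in P11, 1.86, 2.03 and 1.97 CPM in P12, 0.548, 0.657 and 0.616 CPM in P10, and 0, 0 and 0.112 CPM in P9. At the depths estimated from the spacing of low values, 1 CPM stands for at least 13.4 alignments, so the lowest of these values rest on few of them. The median of the 5 was 0.28, beside 0.40 for all genes tested, of which 25.1% were called.

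For hyaluronan metabolism and the ERM linkers of CD44 and CD43, 16 genes were tested. Of these, 1 was called higher and 3 lower in P11 against the mean of the others (median 0.15). The shares of all genes tested were 19.9% higher and 5.2% lower, with a median of 0.40. *Hmmr*, which encodes another hyaluronan-binding protein that acts on the mitotic spindle, had 64.73, 60.80 and 84.40 CPM in P11, 50.89, 72.14 and 51.97 CPM in P12, 12.71, 15.96 and 27.31 CPM in P10, and 16.41, 17.66 and 40.30 CPM in P9. It was 1.26 ± 0.27 higher in P11 (adjusted p = 0.00144), unlike *Cd44*. *Stk10*, a kinase of ERM proteins, was at -1.44 (adjusted p = 1.80e-05) and averaged 84.2 ± 3.79 CPM in P11 and 128.4 ± 47.9 CPM in P12, against 340.3 ± 7.08 CPM in P10 and 288.8 ± 32.4 CPM in P9. *Msn*, which encodes moesin, was at -0.74 (adjusted p = 7.29e-05), under 2-fold. The scavenger receptor gene *Stab1*, with its highest mean in P10 (102.3 ± 19.4 CPM), and the hyaluronan receptor gene *Lyve1* were also called lower. *Lyve1* averaged 0.074 CPM in P11, 0.058 CPM in P12, 0.17 CPM in P10 and 5.82 CPM in P9. Only its P9 libraries reached 1 CPM, so it passed the filter and was called through P9. In P11 it was at 0.05 against P12 and -0.19 against P10, neither of which was called.

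Of 5 tested genes for basigin, neuroplastin and the monocarboxylate transporters that embigin and basigin accompany, 1 was called higher and 1 lower (median 0.17). Beside them, 19.9% of all genes tested were called higher and 5.2% lower (median 0.40). *Slc16a1*, which encodes the transporter MCT1, had 61.19, 52.80 and 53.71 CPM in P11, 37.94, 34.10 and 22.69 CPM in P12, 12.22, 13.19 and 14.89 CPM in P10, and 3.52, 2.86 and 4.71 CPM in P9. It was 2.21 ± 0.17 higher in P11 (adjusted p = 2.04e-06), and no library of one sub-population overlapped another. *Slc16a3*, which encodes MCT4, a transporter of glycolytic cells, averaged 36.5 ± 4.37 CPM in P11, 39.8 ± 9.34 CPM in P12, 85.1 ± 4.62 CPM in P10 and 210.9 ± 43.4 CPM in P9, a difference of -1.27 ± 0.15 (adjusted p = 1.96e-05). *Bsg*, the gene of basigin, was 1.47 higher in P11 than in P9 (adjusted p = 1.37e-06), beside a median of 0.90 for all genes tested. Against the mean of the others, *Bsg* was 0.78 higher (adjusted p = 0.000168). *Emb* did not follow *Slc16a1*, since its P11, P12 and P10 libraries overlapped.

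**Figure D4:**
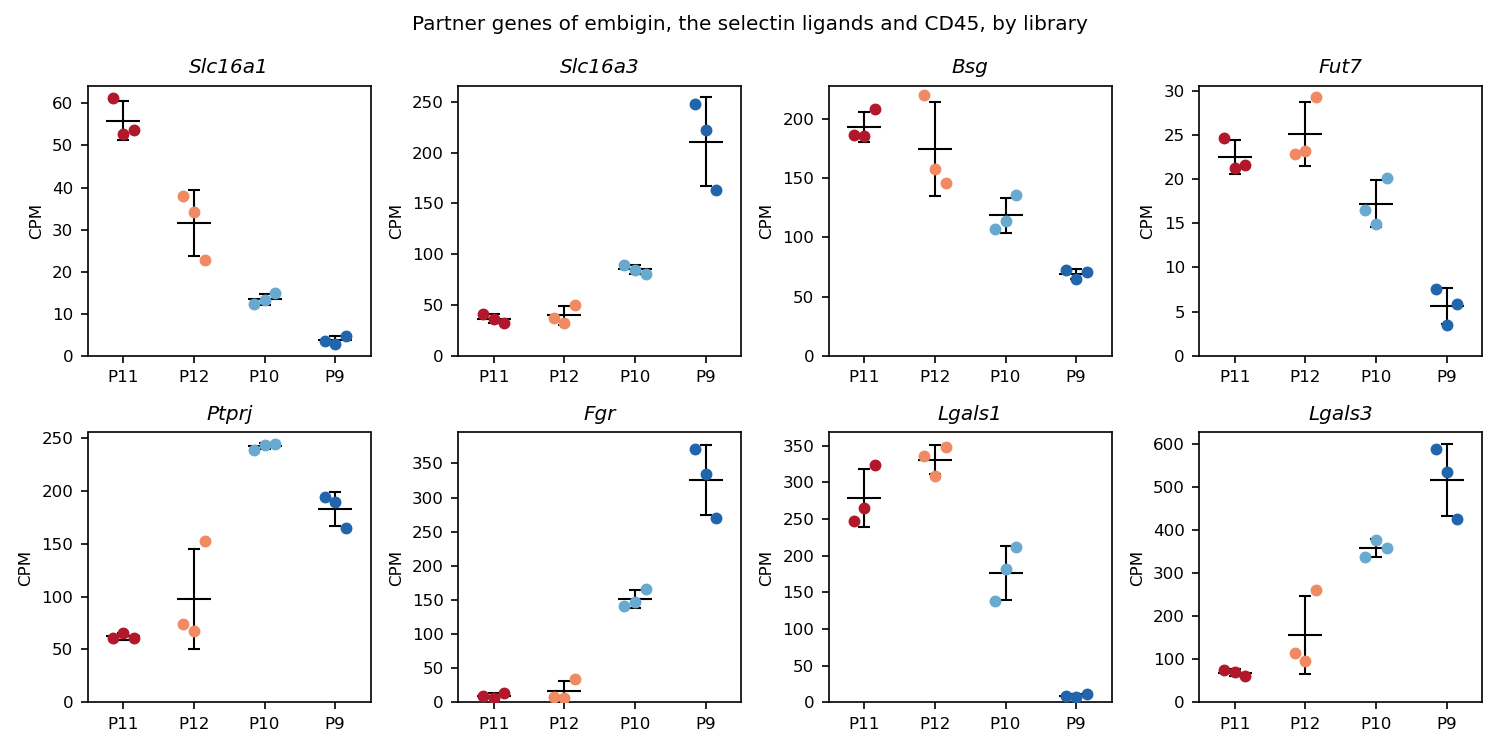
CPM (vertical axes, linear and starting at 0) of 8 partner genes in P11, P12, P10 and P9, with points for the 3 libraries and bars for the mean and SD. *Slc16a1* is highest in P11 at 55.9 ± 4.60 CPM and *Slc16a3* in P9, and *Fgr*, *Ptprj* and *Lgals3* are lower in P11 and P12 than in P10 and P9, with replicate 3 the highest P12 library for each.

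Among 18 tested genes of Src family kinases and other partners of CD45, none was called higher and 4 lower in P11 against the mean of the others. Of all genes tested, 19.9% were called higher and 5.2% lower. The median of the 18 genes was -0.43, beside 0.40 for all genes tested. *Fgr*, a Src family kinase of myeloid cells, had 9.78, 6.42 and 14.07 CPM in P11, 8.63, 6.75 and 33.97 CPM in P12, 141.6, 147.3 and 166.6 CPM in P10, and 371.3, 334.1 and 270.0 CPM in P9. The Mac1- libraries all lay below the Mac1+ ones, and P11 was at -3.10 ± 0.36 (adjusted p = 2.10e-05). *Pag1*, an adaptor that recruits the inhibitory kinase of this family, was at -1.37 (adjusted p = 1.89e-05). *Ptprj*, which encodes a related receptor phosphatase, was at -1.35 (adjusted p = 6.61e-05). *Lyn* (-0.80, adjusted p = 0.00226) and *Ptpn6*, the gene of the phosphatase SHP-1 (-0.77, adjusted p = 4.56e-05), passed the p and not the fold. *Lyn* was highest in P10 (527.8 ± 10.5 CPM) and *Ptpn6* in P9 (583.4 ± 48.2 CPM).

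The lectins that bind sialylated or galactose-tipped glycans moved in both directions, with 2 of 11 called higher, 4 lower and a median of -0.47. For all genes tested these were 19.9% higher, 5.2% lower and a median of 0.40. *Lgals1*, the gene of galectin-1, which binds CD43 and CD45, had 246.7, 265.5 and 323.7 CPM in P11, 336.0, 308.8 and 347.7 CPM in P12, 137.7, 181.4 and 211.3 CPM in P10, and 8.43, 7.32 and 11.51 CPM in P9. Its difference from P9 was 4.88 in P11 (adjusted p = 6.01e-10), beside a median of 0.90 for all genes tested. *Lgals3*, the gene of galectin-3, was at -2.09 ± 0.23 in P11 against the mean of the others (adjusted p = 1.33e-05), with 69.2 ± 7.50 CPM in P11, 156.6 ± 90.2 CPM in P12, 357.6 ± 20.5 CPM in P10 and 515.5 ± 83.2 CPM in P9. The sialic acid-binding receptors *Cd33* (-2.55) and *Siglece* (-1.98) were lower too, and both had their highest means in P9. In P11 against P12, none of the genes of these lists was called, nor any gene of the C-type lectin family of CD93, of which 2 were tested. Of all genes tested, 0.0223% were called there.

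The genes whose levels ran most like each of the 8 were found over the 12 libraries among 8226 protein-coding genes with a mean of 10 CPM or more, by Pearson correlation of log2(CPM + 0.5). For *Cd34* these were *Champ1* (r = 0.998), *Gnptab* (0.996) and *Mtap* (0.995), and for *Cd93* they were *Slc39a10* (0.998), *Fam102b* (0.997) and *Nrip1* (0.997). *Cd44* was followed by *Fpr2* (0.993), *Lilr4b* (0.992) and *Ptafr* (0.987), receptors of myeloid cells, and *Ptprc* by *Kdm7a* (0.996), *Cd84* (0.987) and *Fbxl5* (0.979). Those for *Spn* were *Pcp4l1* (0.996), *Cdc5l* (0.991) and *Cep162* (0.988), and those for *Emb* were *Ercc5* (0.994), *Serinc3* (0.994) and the polysialyltransferase gene *St8sia4* (0.991). *Cd24a* ran with *Hacd2* (0.988), *Cep19* (0.985) and *Msrb2* (0.984). The weakest likeness was that of *Selplg*, with *Alg12* (0.929), *Tab2* (0.925) and *Zmiz1* (0.905). The 12 points share 4 sub-populations and the same libraries, so these values describe the steps between groups.

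The depth of the libraries was 13441944 to 21307424 alignments, as estimated from the spacing of the lowest values. For most libraries this estimate is above the read yield in the study's methods, and the difference was not settled. *Itgam* and *Itgb2*, the genes of Mac1, *Cd9* and *Cd48* followed the gates, while *Kit* averaged 63.2 CPM in P11, 5.19 CPM in P12, 12.7 CPM in the cKit+ P10 and 54.5 CPM in P9. The labels give hematopoietic stem cells as the source of every library, but the stem cell genes *Hlf*, *Procr*, *Ly6a* and *Mllt3*, chosen with values in view, stayed at or under 8.01 CPM. The sum of 12 T and NK cell genes was 0 to 10.4 CPM, and 3 of them, *Cd3e*, *Ncr1* and *Gzma*, had no value used here. Of the B cell genes, *Ighm* averaged 346.8 CPM in P11, 443.4 CPM in P12, 213.4 CPM in P10 and 22.3 CPM in P9, and the others summed to 6.96 to 23.4 CPM, with no values used for *Ms4a1*, *Pax5* and *Iglc2*, among others. Megakaryocyte genes summed to at most 12.3 CPM, and erythroid genes to between 81.6 and 235.6 CPM. Of the endothelial and stromal genes, *Pdgfrb* averaged 33.7 CPM in P11, 37.5 CPM in P12, 13.0 CPM in P10 and 1.10 CPM in P9, and the others summed to at most 24.8 CPM. *Ighm* and *Pdgfrb* were both called higher in P11 against the mean of the others, at 1.41 and 1.88, as *Cd34* was, and the part of B, endothelial or stromal cells in its values was not tested.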

How the data were processed

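RNA-seq was run on 12 libraries, each from 100 sorted ML23 cells. By the study's methods, the reads (61 bases) were aligned to mm10 by STAR, assigned to genes by the Partek E/M procedure and normalized. Partek, STAR 2.5.3a, Bowtie2, bcl2fastq 2.17, DESeq2 3.5 and DESeq are the tools in the submitters' processing notes. The labels give a poly-A SMART-Seq kit with 14 cycles of cDNA amplification, whereas the methods of the paper give a directional kit. The authors deposited CPM values with 0.0001 added, which was subtracted. The spacing of low values gave 13441944 to 21307424 alignments per library, more than the read yield in the study's methods for most libraries, but only 76.6 to 83.1% of low values were whole multiples within 0.1, so no count test was run.

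A gene was tested if at least 3 libraries held 1 CPM or more (13450 genes), on log2(CPM + 0.5) with limma 3.58.1 in R 4.3.3, fitting each sub-population's mean with an intensity trend and adjusting p by Benjamini-Hochberg over these genes. A gene was called at an adjusted p under 0.1 and more than 2-fold. An exact permutation of 3 against 3 libraries cannot go below p = 0.1 and was not used. The test was also run on simulated data, whose outcome is not reported here. Fold changes on this scale understate the change of low genes.

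Named genes are the 8 genes, the 3 most like each, up to 4 called genes of each related list, partner genes fixed by name and the 5 genes of the sort markers, a few of which are not reported here. These genes and lists were chosen with earlier results of these data known. As alternatives, the pseudocount was set to 0.1 or 2, the filter was dropped or raised to 10 CPM, libraries were rescaled by their median ratio, the replicate number was fitted as a block, non-coding genes were dropped, the threshold was lowered to an adjusted p of 0.05, the fold was taken from arithmetic means, and each library was left out in turn. A fit without any replicate 3 was chosen after seeing the data. Python 3.11.15 with numpy 2.4.6, pandas 2.3.3 and matplotlib 3.10.9 made the tables and plots. Promoter windows are from RefSeq, and coordinates are those of mm10.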

Additional observations from a re-analysis of the deposited data

How the results depend on the processing

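Over 22 alternatives for each result, 1187 values kept their direction and side of the threshold, 12 lost a call, 18 gained one and 15 turned direction. Of the 8 genes, 4 were called in P11 against the mean of the others after median-ratio rescaling, 3 with an arithmetic fold (*Cd24a* at -2.19 and *Ptprc* at -1.07 added) and 2 without replicate 3 of every sub-population (*Cd24a* at -1.08 added), in place of 1. Leaving out 1 library gave 1 to 2. In P12 against P10 it was 1, 1 to 2 with 1 library left out, and 3 without replicate 3 of every sub-population (*Cd24a* at 1.25 and *Ptprc* at -1.09 added). *Cd44* was also called in P11 against P10 after rescaling (-1.10) and without replicate 3 of every sub-population (-1.03), and in P12 against P9 after rescaling (-1.29). The cause of these changes was not tested.

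No value that turned direction was called. Rescaling turned *Cd93* in P11 against P10 (-0.11) and *Selplg* in P11 against P9 (-0.43). The arithmetic fold turned *Spn* in P11 against P12 (0.00) and *Cd24a* in P12 against P10 (-0.01). Leaving out replicate 3 of every sub-population turned *Cd24a* in P11 against P12 (-0.25) and *Selplg* in P11 against P9 (-0.04). With 1 library left out, *Spn* in P11 against P12 ranged from -0.10 to 0.06, *Cd24a* in P12 against P10 from -0.22 to 0.83, *Cd93* in P11 against P10 from 0.00 to 0.06, *Selplg* in P12 against P10 from -0.07 to 0.33 and *Selplg* in P11 against P9 from -0.09 to 0.25.

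Libraries with the same number deviated together in 12 of 18 pairs (correlation over 0.1, range -0.02 to 0.53, beside -0.49 to 0.27 for different numbers), and between P11 and P10 in all 3 pairs (0.45, 0.17 and 0.53). In the other 6 pairs the correlation was 0.1 or less. Whether libraries with the same number share a mouse is not settled by these values. The labels do not tie numbers to mice, so the numbers were not used as pairs in the main test. With the replicate block the number of the 8 genes called was 1 in P11 against the mean of the others and 2 in P11 against P10, as without it, and it moved in no other comparison. Over all genes in P11 against P12, 119 were called with the block and 3 without, 34 with a pseudocount of 2, 31 without replicate 3 of every sub-population, and 1 to 82 with 1 library left out.

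Each value rests on 3 libraries of 100 cells from 1 leukemia line. Depth limits genes at few CPM, and the lowest values of the 8 genes are those of *Cd34* in P9, at 5.22 to 7.99 CPM.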
